A study of Homo sapiens with 10 samples.

Results

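The genes described here are 41 direct targets of p53 that act in growth arrest, DNA repair, metabolism, death signalling and stress, with the death receptors, the BCL2 family and the CDKN1A and MDM2 loop left aside. They were listed from knowledge of the pathway, with earlier results of these data known. The counts below describe them and are no independent test. The genes were matched by symbol to the 57820 genes of the expression values, and all 41 were found. They were followed in HCT116 cells, an established human colorectal cancer line, after knockdown of TEX10 or of RELA, the gene of the p65 subunit of NF-κB. Every group, controls included, had received a lentiviral shRNA for 24 h and puromycin for 3 days. TEX10_sh (3 libraries) carried an shRNA against TEX10 and had its own control shRNA group, shNC1 (3 libraries), while p65_sh (2 libraries) carried an shRNA against RELA and had the control group shNC2 (2 libraries). It is not stated in the sources used here which shRNA of each pair went into sequencing, or whether a group's libraries stem from independent cultures. The p-values therefore rest on library-to-library spread, shared in part between genes of like expression, which may be technical only.

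p53 is a transcription factor that MDM2 keeps low in unstressed cells. When MDM2 no longer removes it, p53 binds response elements made of a pair of short half-sites near its target genes and raises their transcription. The proteins made hold the cell cycle, repair DNA, shift metabolism away from oxidative damage or bring on cell death, and in intestinal epithelium this response limits the survival of damaged stem and progenitor cells. TEX10 itself is a subunit of a nuclear complex with PELP1 and WDR18 that acts in the maturation of the large ribosomal subunit.

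Both targeted genes were low where the labels say so. TEX10 was at 31.2, 32.2 and 32.2 CPM (each gene's reads per unit of library depth, as the authors scaled them) in TEX10_sh and at 74.9, 73.1 and 69.8 in shNC1, and RELA was at 29.8 and 31.5 in p65_sh and at 92.01 and 102 in shNC2. The libraries held 28606464 to 44658105 reads, recovered from the CPM values, and a gene with 0 reads could still lie at up to 0.0678 to 0.105 CPM (3 reads, counting error only). Of 11 colon epithelial markers, 7 were above 1 CPM in shNC1, shNC2 and p65_sh and 6 in TEX10_sh. CDX1 had 0 reads in every library, and CEACAM5, another defining marker, had none in TEX10_sh or p65_sh and at most 1 read in any control library. The sum of these markers ran from 3744 to 3864 CPM in shNC1 and from 4454 to 4530 CPM in TEX10_sh, so it moved with TEX10 knockdown, and from 4284 to 4421 CPM in shNC2 and 4231 to 4576 CPM in p65_sh. Most of this sum was keratin. Mean KRT8 was 1799 CPM in shNC1 and 2091 CPM in TEX10_sh, KRT18 931 and 983 CPM, and KRT19 737 and 1084 CPM. Mean EPCAM was 212 CPM in both groups. Markers of other cell types, 13 of 14 of which were in the files used here, summed to 50.1 to 68.6 CPM over all libraries and were lower in each knockdown than in its controls, at 50.1 to 51.5 CPM in TEX10_sh against 55.6 to 58.7 CPM in shNC1 and at 58.4 to 64.95 CPM in p65_sh against 66.8 to 68.6 CPM in shNC2. Of these, CD3E had 0 reads in every library. The part of these shifts in the changes described next was not tested. Since these are bulk libraries, a change in the share of responding cells and a change of RNA per cell cannot be told apart.

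The promoters of the listed genes were searched first, to show where the DNA sequence that p53 recognises lies in genes that moved together. RefSeq windows on GRCh38.p14, 250 bases before to 50 bases after each start site, were matched for 35 of the 41 genes. TP53INP1, PHLDA3, TRIM22, GADD45A, RRM2B and CMBL had no window. The search used the consensus p53 half-site, 10 bases with purines on one side of the core and pyrimidines on the other, which reads the same on both strands. An exact half-site was found in 8 of the 35 genes (22.86%) and in 8.064% of 27305 genes with windows. Counted by window, it was in 8 of 45 (17.78%) and in 6.632% of all 35116. A match is a description of the letters and not a site shown to be used. The half-sites of the genes described most fully below are shown in capitals with 10 bases on either side, on the strand of the gene.
ABCA12 (chr2:215138699-215138708, minus strand, 82 bases before one of its starts): agagaatgtaGGACAAGTCCtactggcctt
RPS27L (chr15:63157527-63157536, minus strand, 59 bases before the start): ggcctagagcAGACAAGCCCgccccgccgc
SESN1 (chr6:109009028-109009037, minus strand, 49 bases before one of its 3 starts): attgtcgtctGGACAAGTCTccacaagtca
FDXR (chr17:74872996-74873005, minus strand, 11 bases before one of its starts): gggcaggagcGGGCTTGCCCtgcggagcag
AEN (chr15:88621306-88621315, plus strand, 34 bases before the start): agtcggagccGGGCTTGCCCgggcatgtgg
DDB2 (chr11:47214979-47214988, plus strand, from base 6 of one of its transcripts): aagctggtttGAACAAGCCCtgggcatgtt
The other genes with an exact half-site were PLK2 and ABHD4.

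A full site was then defined as a pair of half-sites with intact cores, at most 2 mismatches in their flanks and a spacer of up to 13 bases. It was found in 2 of the 35 genes, and in 1.813% of all genes with windows. The pairs are shown because they are the complete element that p53 binds as a tetramer, with half-sites in capitals.
DDB2 (chr11:47214979-47214999, 0 mismatches, spacer of 1 base): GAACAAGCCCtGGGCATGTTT
AEN (chr15:88621306-88621325, 2 mismatches, no spacer): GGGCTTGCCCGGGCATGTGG

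After TEX10 knockdown, p53 target genes rose together. Of the 41, 40 were expressed highly enough to be tested. Of these, 35 were higher at an adjusted p under 0.01 (limma, Benjamini-Hochberg over all 17257 genes tested, among which 21.6% were called higher), 1 was lower (19.0% of all genes tested) and 4 did not pass. A fold change of at least 1.5 on the log2(CPM + 0.5) scale was reached by 21 of the 35, against 2.37% of all genes tested that were called higher by that much, and none of the 40 fell by as much (3.17% of all genes tested). Their median log2 fold change was 0.63 and that of all genes tested 0.00. All 3 TEX10_sh libraries lay above all 3 shNC1 libraries for 35 of the 40 genes (30.4% of all genes tested), below them for 1 (28.3%), and overlapped them for 4.

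After p65 knockdown fewer of these genes were called. Of 40 tested, 17 were higher (14.4% of the 16814 genes tested), 3 were lower (15.8%) and 20 did not pass. ABCA12, SPATA18 and GDF15 were the only 3 called higher by 1.5-fold or more (2.75% of all genes tested), none was called lower by as much (3.56%), and the call of SPATA18 was lost on leaving out a single library, as given with its values. The median log2 fold change was 0.17 (0.01 over all genes tested) and 0.14 without shNC2 replicate 2. Both p65_sh libraries lay above both shNC2 libraries for 23 genes (34.6% of all genes tested) and below them for 10 (33.4%). The count of lower genes was 1 without shNC2 replicate 2.

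**Figure D1:**
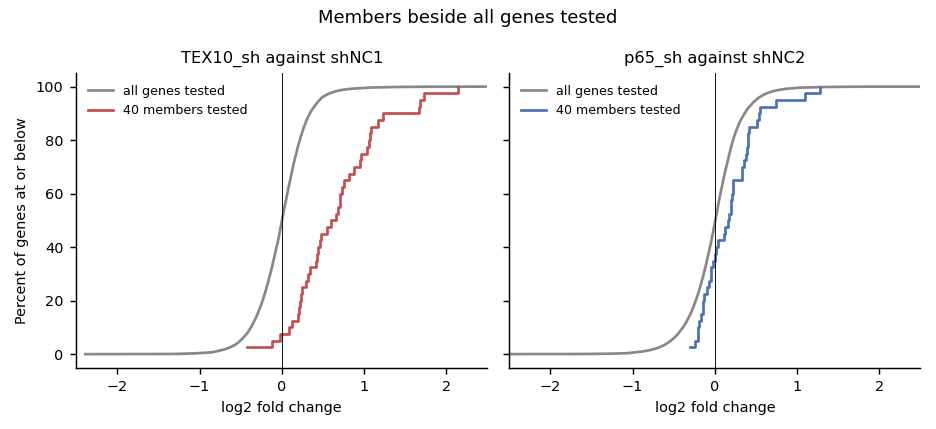
Percent of genes (vertical axis) at or below each log2 fold change (horizontal axis) for all genes tested (grey) and for the 40 p53 target genes tested (coloured), after TEX10 knockdown (left) and p65 knockdown (right). The median of the targets is 0.63 on the left and 0.17 on the right, while the grey curves cross the midline near 0.

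In the cumulative plot the curve of the p53 targets was shifted to the right over almost its whole length after TEX10 knockdown. After p65 knockdown its lower end ran close to that of all genes, and its upper end lay to the right.

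Among the 8 genes of growth arrest, 6 rose after TEX10 knockdown and 1 fell. After p65 knockdown 2 rose and 2 fell. Beside the counts of this and each later role stand the shares over all genes tested. These were 21.6% higher and 19.0% lower after TEX10 knockdown, and 14.4% and 15.8% after p65 knockdown. BTG2, an antiproliferative protein that binds the CCR4-NOT deadenylase, was at 26.8, 27.7 and 25.9 CPM in shNC1 and at 86.9, 96.5 and 86.6 CPM in TEX10_sh. All TEX10_sh libraries were far above the controls, at 90.01 ± 5.63 against 26.8 ± 0.941 CPM (SD, n = 3 each), and the rise was 3.31-fold (log2 fold change 1.73, SE 0.05, adjusted p = 1.37e-13, limma). In the p65 experiment BTG2 was at 33.6 and 31.3 CPM in shNC2 and 40.8 and 42.2 CPM in p65_sh. These groups did not overlap either, with a smaller rise of 1.27-fold (log2 fold change 0.35, SE 0.06, adjusted p = 9.5e-06, limma). SFN, which encodes 14-3-3σ and holds cells before mitosis by keeping CDK1 in the cytoplasm, was at 112, 116 and 109 CPM in shNC1 and 175, 189 and 197 CPM in TEX10_sh, a rise of 1.66-fold (log2 fold change 0.73, SE 0.04, adjusted p = 2.94e-10, limma). Its p65_sh libraries, at 124 and 139 CPM, lay below those of shNC2, at 142 and 153 CPM, without overlap. That fall was small (log2 fold change -0.16, SE 0.05, adjusted p = 0.0063, limma), and it was no longer called without shNC2 replicate 2 (log2 fold change -0.11, adjusted p = 0.204), without p65_sh replicate 1 (-0.08, adjusted p = 0.255), with DESeq2 (adjusted p = 0.0269), without a filter on low values (adjusted p = 0.0829) or in the fit of all 10 libraries (adjusted p = 0.022).

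The other arrest genes moved by less than 1.5-fold. The polo-like kinase genes PLK2 and PLK3, which act in stress checkpoints, rose by 0.55 and 0.32 on the log2 scale after TEX10 knockdown, GADD45A, a stress sensor that binds PCNA, by 0.23, and CCNG1, a cyclin that directs phosphatase PP2A to MDM2, by 0.19. PLK2 also rose by 0.20 after p65 knockdown, a call lost without shNC2 replicate 1 (adjusted p = 0.0119, limma) or replicate 2 (adjusted p = 0.0514), or with DESeq2 (adjusted p = 0.01001). PLK3, GADD45A and CCNG1 did not pass after p65 knockdown, with log2 fold changes of -0.14, 0.04 and -0.04. SERTAD1, a regulator of E2F activity, passed in neither comparison (0.09 and -0.14). BTG1, the paralog of BTG2, was the only one of the 40 genes that fell after TEX10 knockdown, from 37.3, 34.5 and 41.1 CPM in shNC1 to 27.96, 28.8 and 26.8 CPM in TEX10_sh (log2 fold change -0.42, SE 0.06, adjusted p = 7.87e-06, limma). It also fell after p65 knockdown, from 43.2 and 40.4 to 33.7 and 33.8 CPM (log2 fold change -0.30, SE 0.06, adjusted p = 8.53e-05, limma), and this call was lost without shNC2 replicate 1 (log2 fold change -0.25, adjusted p = 0.0149). BTG2 and BTG1 thus moved in opposite directions in both experiments.

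All 4 genes of DNA repair and nucleotide supply rose after TEX10 knockdown. After p65 knockdown 1 rose, 1 fell and 2 did not pass. In 3 of the 4 both p65_sh libraries lay below both controls, as they did for 33.4% of all genes tested. RRM2B, the p53-induced subunit of ribonucleotide reductase, was at 99.4, 102 and 96.8 CPM in shNC1 and 165, 174 and 165 CPM in TEX10_sh (log2 fold change 0.75, SE 0.03, adjusted p = 2.72e-11, limma). It was the repair gene that rose in both experiments, with 113 and 107 CPM in shNC2 and 128 and 125 CPM in p65_sh (log2 fold change 0.20, SE 0.05, adjusted p = 0.000491, limma), although the second call was lost without shNC2 replicate 2 (adjusted p = 0.0498). POLH, the translesion polymerase that copies past ultraviolet damage, was at 24.5, 28.2 and 24.1 CPM in shNC1 and 41.8, 44.04 and 40.1 CPM in TEX10_sh (log2 fold change 0.71, SE 0.06, adjusted p = 2.85e-08, limma). In the p65 experiment it was at 39.01 and 39.8 CPM in shNC2 and 34.2 and 34.9 CPM in p65_sh, lower in both libraries but short of the threshold (log2 fold change -0.19, SE 0.06, adjusted p = 0.0132, limma). The shNC2 controls were thus almost as high as the TEX10_sh libraries, with a gap between the control groups of 0.62 on the log2 scale, although the experiments were scaled separately.

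XPC and DDB2 recognise distorted DNA at the start of nucleotide excision repair, and both rose after TEX10 knockdown. XPC was at 71.5, 71.8 and 67.8 CPM in shNC1 and 97.1, 97.4 and 96.7 CPM in TEX10_sh (log2 fold change 0.46, SE 0.03, adjusted p = 7.76e-09, limma), and at 75.4 and 74.7 CPM in shNC2 and 67.4 and 69.3 CPM in p65_sh (log2 fold change -0.14, SE 0.05, adjusted p = 0.0352, limma). DDB2, whose start site region holds the pair of exact half-sites shown above, was at 43.3, 45.1 and 43.2 CPM in shNC1 and 57.9, 60.4 and 61.3 CPM in TEX10_sh. This was a rise without overlap (log2 fold change 0.44, SE 0.04, adjusted p = 5.93e-08, limma). In the p65 experiment DDB2 was at 57.4 and 60.9 CPM in shNC2 and 49.7 and 50.1 CPM in p65_sh, a fall without overlap (log2 fold change -0.24, SE 0.06, adjusted p = 0.000446, limma). The fall was not called without shNC2 replicate 2 (log2 fold change -0.20, adjusted p = 0.0416), and shNC2 lay above shNC1 by 0.43 on the log2 scale, about the size of the rise after TEX10 knockdown. Of the exonic bases of XPC, 24.87% are also covered by genes on the opposite strand in the GENCODE annotation of GRCh38, including LSM3, and the library kit as given does not mark strand, so its values may hold reads of these.

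The genes of metabolism, redox and lipid handling had the highest median of all roles after TEX10 knockdown. All 9 rose after TEX10 knockdown, 7 of them by at least 1.5-fold (median log2 fold change 0.96), and 5 rose after p65 knockdown (median 0.33). ABCA12, a lipid transporter known from the skin barrier, was at 1.25, 1.39 and 1.54 CPM in shNC1 and 7.34, 8.35 and 7.91 CPM in TEX10_sh. On the log2(CPM + 0.5) scale, which understates changes of genes near that level, this ranked 3 from the top among the log2 fold changes of 17257 genes tested (log2 fold change 2.15, SE 0.10, adjusted p = 8.61e-11, limma). It also rose after p65 knockdown, from 1.04 and 0.727 CPM to 2.81 and 2.84 CPM (log2 fold change 1.28, SE 0.18, adjusted p = 4.8e-08, limma), the largest log2 fold change of the 40 genes in that experiment. These low values rested on 55, 53 and 52 reads in shNC1 and 32 and 21 reads in shNC2. TP53I3, a quinone oxidoreductase that generates reactive oxygen species, was at 14.3, 12.6 and 14.3 CPM in shNC1 and 40.7, 48.2 and 46.3 CPM in TEX10_sh, a rise of 3.20-fold (log2 fold change 1.68, SE 0.06, adjusted p = 7.1e-12, limma). With p65 knockdown it went from 7.74 and 8.93 CPM in shNC2 to 12.1 and 12.5 CPM in p65_sh (log2 fold change 0.54, SE 0.10, adjusted p = 1.75e-05, limma). Its p65_sh libraries lay below the lowest shNC1 library, and shNC2 minus shNC1 was -0.69 on the log2 scale.

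C12orf5, which encodes the fructose-2,6-bisphosphatase TIGAR, was at 15.6, 15.2 and 13.9 CPM in shNC1 and 34.9, 36.6 and 35.02 CPM in TEX10_sh (log2 fold change 1.23, SE 0.05, adjusted p = 2.48e-11, limma). After p65 knockdown it was at 18.4 and 19.7 CPM against 16.2 and 16.2 CPM, above both controls but short of the threshold (log2 fold change 0.22, SE 0.08, adjusted p = 0.0236, limma). A gene on the same strand, AC008012.1, covers 45.31% of its exonic bases, so part of its reads could belong to either. SESN1, a sestrin that restrains mTORC1 and peroxides, was at 18.5, 19.1 and 17.9 CPM in shNC1 and 38.4, 41.9 and 38.6 CPM in TEX10_sh, a rise of 2.11-fold (log2 fold change 1.08, SE 0.05, adjusted p = 4.54e-11, limma). It rose less after p65 knockdown, from 21.3 and 20.5 to 27.9 and 28.2 CPM (log2 fold change 0.41, SE 0.07, adjusted p = 4.46e-06, limma). FAM210B, a mitochondrial protein of erythroid and lipid metabolism, was at 24.9, 24.2 and 24.00 CPM in shNC1 and 45.8, 49.2 and 47.5 CPM in TEX10_sh (log2 fold change 0.95, SE 0.04, adjusted p = 3.93e-11, limma). It followed the same direction after p65 knockdown, from 19.2 and 19.2 to 28.5 and 26.98 CPM (log2 fold change 0.52, SE 0.07, adjusted p = 5.76e-08, limma). FDXR, which passes electrons to mitochondrial ferredoxins, was at 87.3, 88.6 and 85.1 CPM in shNC1 and 133, 141 and 138 CPM in TEX10_sh (log2 fold change 0.66, SE 0.03, adjusted p = 1.27e-10, limma). Its rise after p65 knockdown was from 98.6 and 101 to 118 and 133 CPM (log2 fold change 0.33, SE 0.05, adjusted p = 4.07e-07, limma).

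ACER2, a Golgi ceramidase that yields sphingosine, departed from these. It was at 4.49, 5.26 and 5.41 CPM in shNC1 and 10.3, 10.6 and 9.95 CPM in TEX10_sh (log2 fold change 0.96, SE 0.08, adjusted p = 8.43e-08, limma). After p65 knockdown its values, 5.51 and 5.33 CPM, lay below the 6.15 and 6.54 CPM of shNC2, and the change did not pass (log2 fold change -0.21, SE 0.12, adjusted p = 0.172, limma). The hydrolase gene CMBL rose by 0.47 on the log2 scale after TEX10 knockdown and was at -0.02 after p65 knockdown, which did not pass. ABHD4, a lipase of N-acyl phospholipids, rose by 0.25 after TEX10 knockdown (not called without TEX10_sh replicate 3, adjusted p = 0.0127, limma) and was at 0.11 after p65 knockdown, which did not pass.

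**Figure D2:**
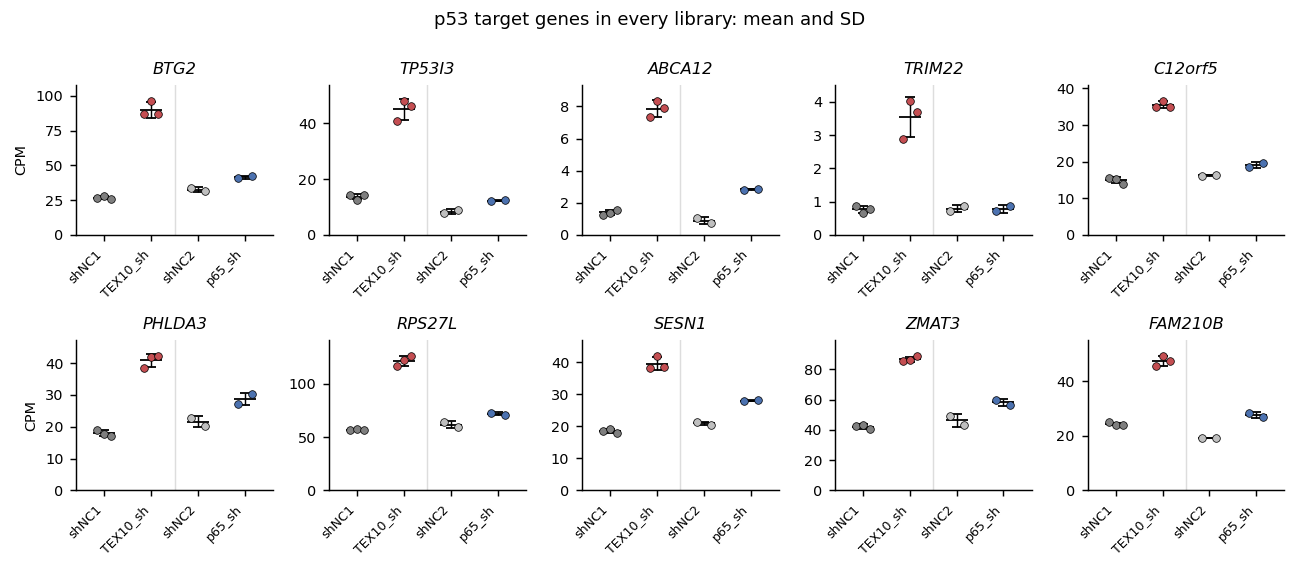
CPM (vertical axis, from 0) of 10 p53 target genes in each library of the 4 groups. Points are libraries, and bars give the mean and SD. The TEX10_sh points lie above all shNC1 points in each panel, as for BTG2 at 90.01 ± 5.63 against 26.8 ± 0.941 CPM, while the p65_sh points of TRIM22 overlap those of shNC2.

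The plot of rising genes by library sets the experiments side by side. The spread within each group was small beside the rise after TEX10 knockdown, and the p65_sh libraries lay nearer to their own controls in each panel.

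Of the 13 genes of death, autophagy and survival signalling, 12 rose after TEX10 knockdown, 8 of them by at least 1.5-fold, and 7 rose after p65 knockdown. PHLDA3, whose pleckstrin homology domain competes with AKT at the membrane, was at 18.9, 17.9 and 17.01 CPM in shNC1 and 38.4, 41.96 and 42.1 CPM in TEX10_sh (log2 fold change 1.17, SE 0.05, adjusted p = 3.78e-11, limma). It was also higher in p65_sh, at 27.3 and 30.2 against 22.8 and 20.4 CPM (log2 fold change 0.40, SE 0.07, adjusted p = 1.08e-05, limma). The annotation places AC096677.2 on the same strand over 22.21% of its exonic bases. RPS27L, a ribosomal protein paralog that binds MDM2, was at 56.3, 57.6 and 57.1 CPM in shNC1 and 116, 122 and 126 CPM in TEX10_sh, a rise of 2.12-fold (log2 fold change 1.09, SE 0.03, adjusted p = 9.8e-13, limma). Its close relative RPS27, with which it could share reads, rose by only 0.23 on the log2 scale (SE 0.03). After p65 knockdown RPS27L was at 72.8 and 71.01 CPM against 63.8 and 59.5 CPM (log2 fold change 0.22, SE 0.05, adjusted p = 0.000773, limma), a call lost without shNC2 replicate 2 (adjusted p = 0.0683) or without a filter on low values (adjusted p = 0.0105). ZMAT3, an RNA-binding zinc finger protein, was at 42.3, 43.5 and 40.7 CPM in shNC1 and 85.8, 85.9 and 88.6 CPM in TEX10_sh (log2 fold change 1.03, SE 0.04, adjusted p = 2.66e-12, limma). It was at 49.1 and 43.3 CPM in shNC2 and 59.8 and 56.5 CPM in p65_sh (log2 fold change 0.33, SE 0.06, adjusted p = 8.5e-06, limma), and this call was lost without shNC2 replicate 2 (adjusted p = 0.0106).

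AEN, the apoptosis-enhancing nuclease whose promoter holds the other pair of half-sites, rose after TEX10 knockdown. It was at 52.1, 54.00 and 47.6 CPM in shNC1 and 87.1, 91.7 and 93.6 CPM in TEX10_sh (log2 fold change 0.82, SE 0.04, adjusted p = 2.94e-10, limma). Its groups overlapped in the p65 experiment, at 52.1 and 53.5 CPM in shNC2 and 52.99 and 53.5 CPM in p65_sh (log2 fold change 0.01, SE 0.06, adjusted p = 0.895, limma). CYFIP2, a subunit of the WAVE actin complex, rose in both, from 120.4, 117 and 113 CPM in shNC1 to 189, 196 and 189 CPM in TEX10_sh (log2 fold change 0.71, SE 0.03, adjusted p = 3.47e-11, limma). The corresponding values were 116 and 116 CPM in shNC2 and 149.9 and 157 CPM in p65_sh (log2 fold change 0.40, SE 0.05, adjusted p = 3.23e-10, limma). DRAM1, a lysosomal membrane protein of autophagy, was at 23.95, 23.2 and 24.6 CPM in shNC1 and 38.3, 40.4 and 37.6 CPM in TEX10_sh (log2 fold change 0.68, SE 0.05, adjusted p = 3.51e-09, limma). After p65 knockdown it stood above both controls without passing, at 30.2 and 29.4 against 26.6 and 25.3 CPM (log2 fold change 0.19, SE 0.07, adjusted p = 0.0204, limma).

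TP53INP1, a cofactor of p53 that also acts in autophagy, had the closest log2 fold changes of this group in the experiments. It was at 47.9, 45.2 and 44.1 CPM in shNC1 and 69.3, 70.9 and 68.8 CPM in TEX10_sh (log2 fold change 0.60, SE 0.04, adjusted p = 2.11e-09, limma). It was at 47.2 and 47.3 CPM in shNC2 and 71.9 and 67.3 CPM in p65_sh (log2 fold change 0.55, SE 0.06, adjusted p = 2.7e-12, limma). Neither pair of groups overlapped. SPATA18, which acts in mitochondrial quality control, was expressed at a very low level, with 19, 9 and 17 reads in shNC1 and 36, 44 and 68 reads in TEX10_sh. In CPM it was at 0.433, 0.235 and 0.503 in shNC1 and 1.26, 1.25 and 1.54 in TEX10_sh (log2 fold change 1.06, SE 0.15, adjusted p = 1.89e-05, limma), and at 0.389 and 0.242 in shNC2 and 0.948 and 0.771 in p65_sh (log2 fold change 0.74, SE 0.23, adjusted p = 0.00673, limma). The second call did not hold without shNC2 replicate 2 (adjusted p = 0.0773), p65_sh replicate 1 (adjusted p = 0.0809) or p65_sh replicate 2 (adjusted p = 0.0184), or without a filter on low values (adjusted p = 0.0175). The remaining genes moved by less than 1.5-fold. After TEX10 knockdown CDIP1, a proapoptotic regulator of TNF signalling, rose by 0.43, PIDD, the scaffold of the PIDDosome, by 0.41, APAF1, the core of the apoptosome, by 0.30 and the membrane protein gene PERP by 0.21 on the log2 scale. None of these passed after p65 knockdown, where they were at -0.09, -0.08, 0.16 and 0.12. The shNC2 libraries lay above shNC1 for APAF1 by 0.42, more than its rise after TEX10 knockdown, and 10.04% of its exonic bases are covered by ANKS1B on the opposite strand.

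TRIAP1, a mitochondrial lipid transfer protein that protects from apoptosis, showed the reverse of most genes. It was at 30.9, 28.3 and 27.7 CPM in shNC1 and 24.6, 28.9 and 26.9 CPM in TEX10_sh, groups that overlapped (log2 fold change -0.11, SE 0.06, adjusted p = 0.116, limma). In the p65 experiment it was at 32.3 and 29.2 CPM in shNC2 and 39.99 and 40.5 CPM in p65_sh, a rise without overlap (log2 fold change 0.39, SE 0.07, adjusted p = 2.18e-06, limma). It was the only one of the 40 genes called higher after p65 knockdown and not after TEX10 knockdown.

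Of the 5 secreted, membrane and receptor genes, 4 were tested. After TEX10 knockdown 3 rose and after p65 knockdown 2 rose. GDF15, a secreted stress hormone of the TGF-β superfamily, was at 231, 201 and 282 CPM in shNC1 and 280.3, 302 and 319 CPM in TEX10_sh. These groups overlapped, since shNC1 replicate 3 lay above TEX10_sh replicate 1. The rise of 1.27-fold (log2 fold change 0.35, SE 0.08, adjusted p = 0.0015, limma) was not called without TEX10_sh replicate 3 (adjusted p = 0.0149), with DESeq2 (adjusted p = 0.0793) or without a filter on low values (adjusted p = 0.026). After p65 knockdown GDF15 went from 116 and 122 CPM in shNC2 to 243 and 268 CPM in p65_sh, a clear rise of 2.15-fold (log2 fold change 1.10, SE 0.05, adjusted p = 5.85e-28, limma). The control groups themselves differed, with shNC2 minus shNC1 at -0.99 on the log2 scale, and the p65_sh libraries lay within the range of shNC1. KIAA0247, the gene of the sushi domain protein SUSD6, was at 15.5, 15.5 and 14.6 CPM in shNC1 and 28.7, 29.5 and 26.9 CPM in TEX10_sh (log2 fold change 0.88, SE 0.05, adjusted p = 1.16e-09, limma). It rose after p65 knockdown as well, from 16.4 and 17.2 to 21.1 and 22.9 CPM (log2 fold change 0.38, SE 0.08, adjusted p = 8.52e-05, limma).

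NINJ1, a membrane protein that ruptures the plasma membrane of dying cells, rose by 0.22 on the log2 scale after TEX10 knockdown and did not pass after p65 knockdown (0.18). KITLG, the ligand of the KIT receptor, passed in neither (-0.02 and -0.04). EDA2R, a receptor of the TNF receptor superfamily, had too few reads to be tested, with 4, 1 and 3 reads in shNC1, 6, 6 and 11 in TEX10_sh, 2 and 1 in shNC2 and 6 and 2 in p65_sh.

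The last 2 genes fit none of these roles. TRIM22, an antiviral ubiquitin ligase that interferon also induces, was at 0.866, 0.654 and 0.769 CPM in shNC1 and 2.88, 4.03 and 3.71 CPM in TEX10_sh. Each TEX10_sh library was above the highest control by a wide margin (log2 fold change 1.67, SE 0.13, adjusted p = 3.17e-08, limma), on 82, 142 and 164 reads. In the p65 experiment the groups overlapped, at 0.712 and 0.865 CPM in shNC2 and 0.704 and 0.876 CPM in p65_sh (log2 fold change 0.00, SE 0.21, adjusted p = 0.999, limma). ANKRA2, an ankyrin repeat protein, passed in neither comparison. It was at 13.4, 12.5 and 13.6 CPM in shNC1 and 14.9, 13.7 and 14.7 CPM in TEX10_sh (log2 fold change 0.13, SE 0.06, adjusted p = 0.0994, limma), and at 14.99 and 14.1 CPM in shNC2 and 12.97 and 12.1 CPM in p65_sh (log2 fold change -0.21, SE 0.09, adjusted p = 0.0626, limma).

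**Figure D3:**
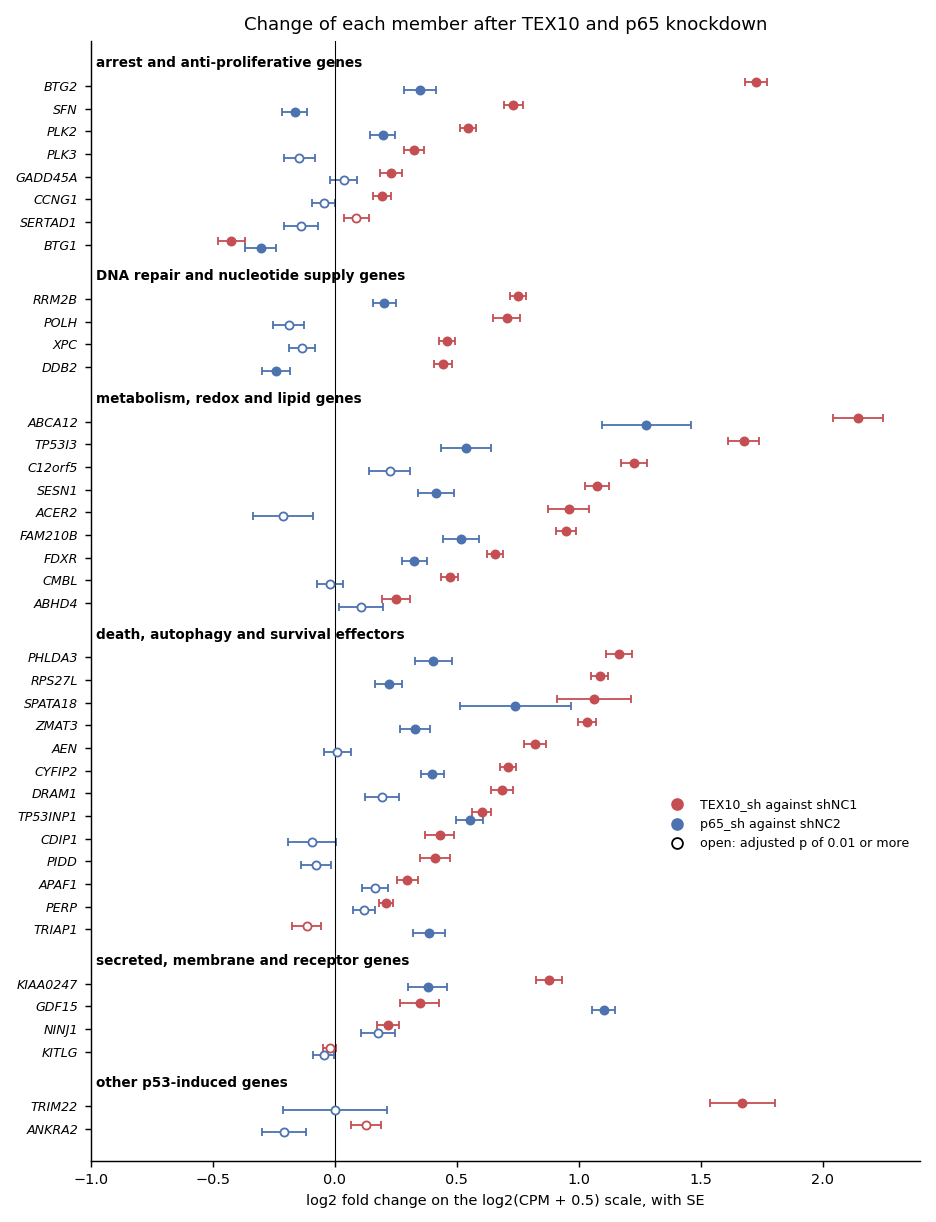
Log2 fold change with SE (horizontal axis, log2(CPM + 0.5) scale) of the 40 tested p53 target genes, grouped by role, after TEX10 knockdown (red) and p65 knockdown (blue). Open points have an adjusted p of 0.01 or more. The red points reach 2.15 (ABCA12) and lie right of the blue ones for 37 of 40 genes, with BTG1, TRIAP1 and GDF15 as the exceptions.

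The plot of changes by role shows that every role held genes that rose after TEX10 knockdown. The blue points of repair genes, in contrast to the red ones, lay mostly left of 0, where only that of DDB2 was called.

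The difference between the knockdown effects was tested in a fit of all 10 libraries. Of the 40 genes, 27 had a higher effect of TEX10 knockdown than of p65 knockdown (11.5% of 17922 genes tested), 2 a lower one (8.49%) and 11 did not pass. A difference of at least 1.5-fold was called higher for 15 (2.7%) and lower for 1, GDF15 (2.43%). Because each knockdown was run with its own controls and scaled separately, knockdown and experiment cannot be told apart in this test. The gap between control groups was over 0.3 on the log2 scale for 9 of the 40 genes. The widest differences were in TRIM22 (1.67, SE 0.22, adjusted p = 8.96e-06, limma), BTG2 (1.38, SE 0.07, adjusted p = 3.78e-11), ACER2 (1.17, SE 0.14, adjusted p = 1.55e-06), TP53I3 (1.14, SE 0.11, adjusted p = 1.93e-07) and C12orf5 (1.00, SE 0.09, adjusted p = 3.18e-08). The repair genes differed as well, by 0.89 for POLH, 0.69 for DDB2, 0.60 for XPC and 0.55 for RRM2B, all called. GDF15 (-0.75, SE 0.12, adjusted p = 6.54e-05, limma) and TRIAP1 (-0.50, SE 0.09, adjusted p = 0.000316) were the 2 with the lower effect. For TP53INP1 the difference was 0.05 (SE 0.06) and for BTG1 -0.12 (SE 0.09), and neither passed. The call was not stable for CCNG1, whose difference of 0.24 was lost without TEX10_sh replicate 2 (adjusted p = 0.0158), shNC2 replicate 1 (adjusted p = 0.0286) or p65_sh replicate 2 (adjusted p = 0.0339), and for ABCA12, whose difference of 0.87 was lost without shNC2 replicate 1 (adjusted p = 0.0119). The ABCA12 call was also lost with edgeR (adjusted p = 0.0173), with DESeq2 (adjusted p = 0.0456) and without a filter on low values (adjusted p = 0.0205). Without that filter the CCNG1 call (adjusted p = 0.0353) and the PIDD call (adjusted p = 0.0166) were lost too, and that of CCNG1 also with library totals (adjusted p = 0.0133). GADD45A, at 0.19 and not called, passed without shNC1 replicate 3 (adjusted p = 0.00313).

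**Figure D4:**
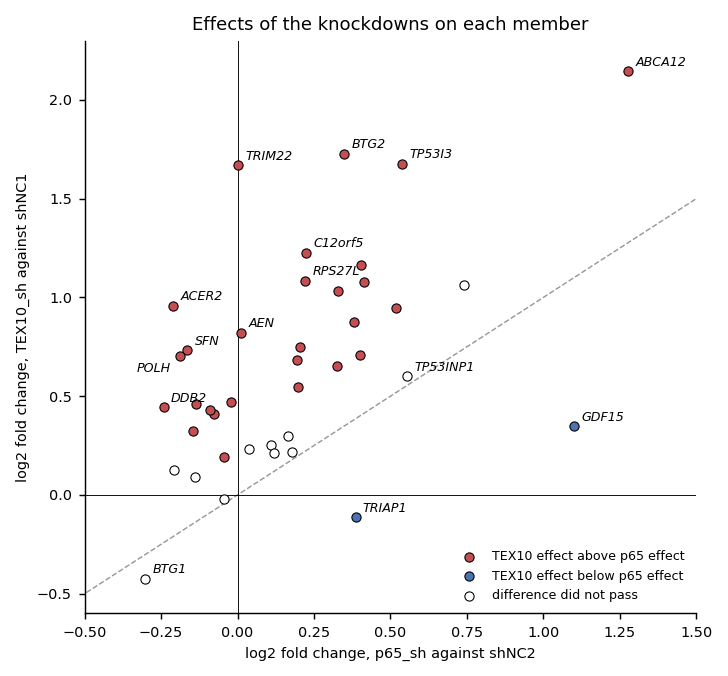
Log2 fold change after TEX10 knockdown (vertical axis) against that after p65 knockdown (horizontal axis) for the 40 tested p53 target genes, with the line of equal effects dashed. Red genes had a called higher effect of TEX10 knockdown (27), blue genes a lower one (2, GDF15 and TRIAP1), and white genes no called difference (11).

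**Figure D5:**
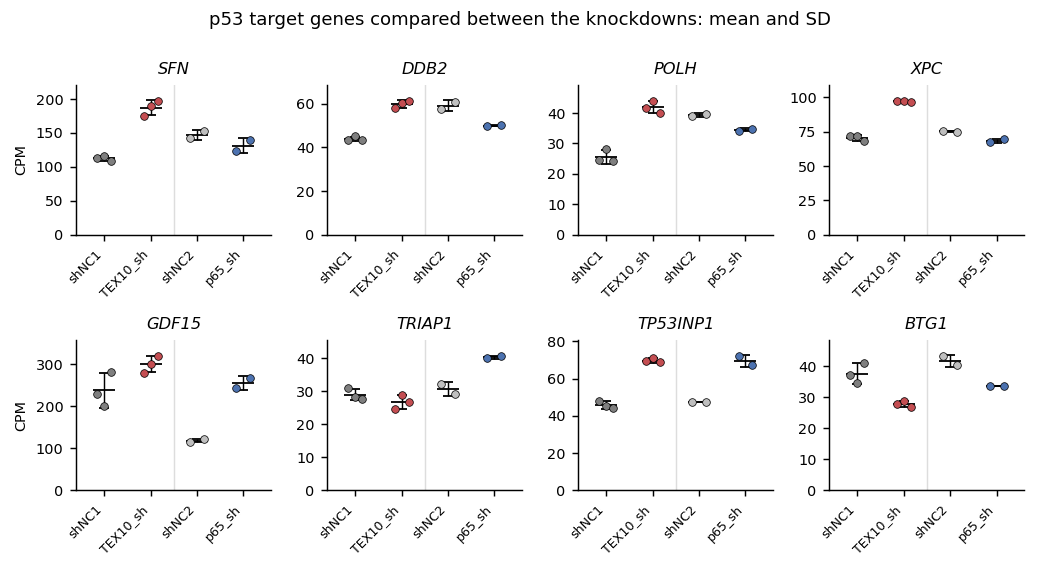
CPM (vertical axis, from 0) in each library of 8 p53 target genes whose changes are contrasted between the experiments. Points are libraries, and bars give the mean and SD. SFN and DDB2 lie above shNC1 in TEX10_sh and below shNC2 in p65_sh, GDF15 and TRIAP1 show the larger change in p65_sh, TP53INP1 rose and BTG1 fell in both.

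Counting calls in both experiments, 16 of the 40 genes were higher in both (7.63% of the 16573 genes tested in both), 1 was lower in both (BTG1, against 8.15%), 2 moved in opposite directions (SFN and DDB2, against 2.75%), 17 were called higher after TEX10 knockdown alone, 1 after p65 knockdown alone (TRIAP1) and 3 in neither (SERTAD1, KITLG and ANKRA2). BTG1 was not called lower in both without shNC2 replicate 1. The count in opposite directions was 0 without shNC2 replicate 2 and 1 without p65_sh replicate 1. The comparisons share no library. The plot of the effects against each other shows most genes above the line of equal effects, and the plot of contrasted genes by library shows the values behind the exceptions.

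The 8 genes with an exact half-site near a start were all called higher after TEX10 knockdown, with log2 fold changes from 0.25 (ABHD4) to 2.15 (ABCA12) and a median of 0.74. Of the 26 tested genes with a window and no exact half-site, 21 were higher and 1 lower, with a median of 0.45. BTG2 and TP53I3, which rose the most after ABCA12, were among those without a half-site in the window. After p65 knockdown 5 of the 8 were higher and 1 lower (DDB2), with a median of 0.21, and 9 of the 26 were higher and 2 lower, with a median of 0.14. The shares over all genes tested were 21.6% higher and 19.0% lower after TEX10 knockdown, and 14.4% and 15.8% after p65 knockdown. No test was made between the genes with and without a half-site, and a window without these letters says nothing about p53 at that gene.

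The same fits gave the rest of the pathway. Of 23 tested partners and upstream regulators of p53, 6 were higher and 5 lower after TEX10 knockdown, and 7 were higher and 3 lower after p65 knockdown. Over all genes tested, 21.6% were higher and 19.0% lower after TEX10 knockdown, and 14.4% and 15.8% after p65 knockdown. These shares stand beside the counts of this list and of the lists that follow. For TEX10 knockdown the counts of this first list were close to them. MDM2, the ubiquitin ligase of p53, rose by 1.21 and 0.45 on the log2 scale after TEX10 and p65 knockdown. In the same order the phosphatase gene PPM1D rose by 0.74 and 0.38, and MDM4, the other inhibitor of p53, fell by 0.42 and 0.23. After p65 knockdown PPP1R13L, the inhibitory partner iASPP, fell by 0.65, and it did not pass after TEX10 knockdown (-0.03). The acetyltransferase gene CREBBP rose by 0.25 after TEX10 knockdown and by 0.35 after p65 knockdown.

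The next list held core loop and cell death targets of p53, and also the sestrin gene SESN2. Of its 15 genes tested after TEX10 knockdown, 11 were higher and 1 lower (median 0.60). Of 14 tested after p65 knockdown, 7 were higher and 3 lower (median 0.36). This list shares MDM2, MDM4 and PPM1D with the regulators. CDKN1A, the inhibitor of cyclin-dependent kinases, rose by 1.77 and 0.38, and the death receptor gene FAS by 1.44 and 0.37. The decoy receptor gene TNFRSF10D rose by 0.47 after TEX10 knockdown and fell by 0.99 after p65 knockdown. Of 20 cell cycle genes that the DREAM complex represses downstream of p53 and CDKN1A, 1 was higher and 16 were lower after TEX10 knockdown (median -0.35), and 2 were higher and 8 lower after p65 knockdown (median -0.12). TOP2A, the mitotic topoisomerase, fell by 0.40 and 0.40, the checkpoint kinase gene BUB1 by 0.43 and 0.34, and CCNB2, a mitotic cyclin, by 0.50 and 0.28. The control groups differed by about as much or more, with shNC2 above shNC1 by 0.62 for TOP2A, 0.72 for BUB1 and 0.49 for CCNB2. CDC25A, a phosphatase that activates CDK2, rose by 0.51 after TEX10 knockdown and by 0.44 after p65 knockdown.

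Among the cell type markers, 3 of 8 tested colon epithelial genes were higher after TEX10 knockdown, namely KRT19 (0.56), KRT8 (0.22) and CDH1 (0.17). After p65 knockdown 4 were higher and 1 lower, with EPCAM at 0.18, KRT20 at 0.77 and CDX2 at 0.34. The lower one was VIL1 at -0.84 (adjusted p = 0.00309, limma), on 47 and 54 reads in shNC2 and 49 and 7 reads in p65_sh. Its p65_sh libraries thus differed widely, and it did not pass after TEX10 knockdown (-0.53). The call of EPCAM was lost without shNC2 replicate 2 (adjusted p = 0.0583, limma), that of KRT20 without shNC2 replicate 1 (0.0258) or p65_sh replicate 1 (0.0171), and that of CDX2 without shNC2 replicate 1 or 2 (0.0137 each) or p65_sh replicate 2 (0.121). With DESeq2 the calls of KRT20 (adjusted p = 0.0604) and CDX2 (0.0473) were lost, and without a filter on low values those of EPCAM (adjusted p = 0.0135), KRT20 (0.0275) and CDX2 (0.0299) and, after TEX10 knockdown, that of CD68 (0.0102). Of 8 tested markers of other cells, 2 fell in each comparison and none rose, DES by 0.81 and 1.65 and CD68 by 0.51 and 0.77, while the myeloid gene LYZ did not pass (0.48 and 0.41), although edgeR called it higher after TEX10 knockdown (adjusted p = 0.00564). Mitochondrial genes took 6.84% of reads in shNC1 and 6.87% in TEX10_sh, and 6.55% in shNC2 as against 7.28% in p65_sh.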

How the data were processed

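The 10 libraries hold mRNA of HCT116 cells in 4 groups. Libraries were made from bead-captured mRNA with a TruSeq kit, and the submitters' processing notes name STAR 2.4.2a, RSEM 1.2.29, edgeR 3.8.5 and build hg19. The authors deposited CPM values, scaled by a factor for each library and separately in each experiment. Dividing each library by its smallest step gave whole reads (within 0.01) for 100% of values above 0. All columns were used.

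Genes that passed filterByExpr on the recovered reads (minimum count 10, total 15) were tested with limma 3.58.1 in R 4.3.3 (trend, on log2 of CPM plus 0.5), each knockdown against its own controls. The difference between effects was a contrast in a fit of all 10 libraries. Every p is two-sided, adjusted by Benjamini-Hochberg over all genes tested, and called under 0.01. The trend setting draws each gene's variance toward that of genes of like expression. In the p65 experiment the SE followed expression more than a gene's own spread. FDXR and XPC, with an SD of 10.6 and 1.36 CPM in p65_sh, both had an SE of 0.05. Very small p-values there do not measure the replicate spread of the single gene. The script was tested on simulated data. The 41 genes, their roles and the other lists were chosen with earlier results of these data known. Values in every library are given for genes called with a fold change of at least 1.5, called in opposite directions, with a called difference between effects of at least that fold, or with the smallest adjusted p of their role in a comparison. Other tested genes are given by their fold change, and up to 3 genes per context list by smallest adjusted p. A further gene of the pathway is not reported here. TRIAP1 and BTG1 were given in full, and VIL1 was named, after their values were seen.

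Alternatives were pseudocounts of 0.1 and 1, no filter or a mean of at least 1 CPM, edgeR 4.0.16 (quasi-likelihood, TMM), DESeq2 1.42.0, library totals, a fit of all 10 libraries, an adjusted p under 0.05, a fold change of at least 1.5, each library left out, and the replicate number as a block. Promoter windows are those of RefSeq, and exon overlap is from GENCODE on GRCh38.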

Additional observations from a re-analysis of the deposited data

Results flagged for a closer look

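The effect of TEX10 knockdown differed from that of p65 knockdown for 29 of the 40 genes, by the contrast of effects in limma (adjusted p under 0.01, all 10 libraries). The TEX10 effect was the higher one for 27 (11.5% of the 17922 genes tested) and the lower one for 2 (8.49%). Knockdown and experiment cannot be told apart in this contrast. The TEX10 effect minus the p65 effect, on the log2 scale, was highest for TRIM22 at 1.67, followed by BTG2 at 1.38, ACER2 at 1.17, TP53I3 at 1.14 and C12orf5 at 1.00. It was 0.90 for SFN, 0.89 for POLH, 0.87 for ABCA12, 0.86 for RPS27L, 0.81 for AEN, 0.76 for PHLDA3, 0.70 for ZMAT3, 0.69 for DDB2, 0.66 for SESN1 and 0.60 for XPC. Smaller differences were 0.55 for RRM2B, 0.52 for CDIP1, 0.50 for KIAA0247, 0.49 for each of CMBL, DRAM1 and PIDD, 0.47 for PLK3, 0.43 for FAM210B, 0.35 for PLK2, 0.33 for FDXR, 0.31 for CYFIP2 and 0.24 for CCNG1. The values below 0 were -0.50 for TRIAP1 and -0.75 for GDF15. No group had more than 3 libraries, so no single library was examined for standing apart within its group.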

How the results depend on the processing

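Of 195 recomputed counts and medians, 174 stayed within 1.5 times the reported count or within 1 SD of the reported median. At a fold change of at least 1.5, the counts were 21 higher and 0 lower after TEX10 knockdown, 3 and 0 after p65 knockdown, 15 and 1 for the difference, 2 higher in both, 0 lower in both and 0 in opposite directions. At an adjusted p under 0.05, 5 genes were lower after p65 knockdown and 4 moved in opposite directions. The latter count was 1 without a filter, with DESeq2 and with the fit of all 10 libraries. Shares over all genes tested are given only for the main fits at an adjusted p under 0.01. Counts at other settings, here and below, have no such share beside them. On leaving out 1 library, the counts ran from 33 to 35 higher and 1 to 1 lower after TEX10 knockdown (median 0.61 to 0.65), 12 to 16 higher and 1 to 3 lower after p65 knockdown (median 0.14 to 0.17), 25 to 28 higher and 2 to 2 lower for the difference, 11 to 16 higher in both, 0 to 1 lower in both and 0 to 2 in opposite directions. Same-numbered libraries did not deviate together (r of deviations from -0.02 to 0.04), so the replicate numbers pair nothing. With the replicate number as a block, 35 genes were higher after TEX10 knockdown, 21 higher and 5 lower after p65 knockdown, and 4 moved in opposite directions. Of 2282 recomputed changes of single genes, 44 lost their call, 14 gained one and 10 turned sign. Signs turned only for changes that did not pass. On leaving out 1 library, the log2 fold change after p65 knockdown ran from -0.0045 (shNC2 replicate 2 left out) to 0.0779 for GADD45A, from -0.0086 (shNC2 replicate 1) to 0.0316 for AEN and from -0.096 (p65_sh replicate 2) to 0.0968 for TRIM22, which was also at -0.0854 without shNC2 replicate 1, at -0.0056 with edgeR and at -0.0042 with DESeq2. The difference between effects ran from -0.0035 (p65_sh replicate 2) to 0.0513 for KITLG, which was at -0.0123 with library totals, and from -0.0095 (p65_sh replicate 1) to 0.0946 for NINJ1, which was at -0.0065 without shNC2 replicate 2. The cause was not tested for any of these. With 2 libraries a group, the p65 experiment limits what can be called, and genes with few reads (EDA2R, SPATA18, TRIM22 in controls) carry the widest errors.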
